A study of Mus musculus with 15 samples.

Results

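Azin2, which encodes antizyme inhibitor 2, and the other genes that set the polyamine content of a cell were followed in RNA of the choroid plexus of mice with 0, 1 or 2 wild-type alleles of Add1, the gene of the membrane skeleton protein alpha-adducin. Of the 10 genes in this set, 7 (Azin2, Azin1, Odc1, Oaz2, Srm, Sat1 and Smox) had a probe set listed under their symbol alone, out of 19938 genes so listed on the array. For Oaz1 and Sms the listed probe sets carried a pseudogene's symbol as well, and these 2 genes are described on shared probe sets. Amd1 had no listed probe set and was not analysed here. A gene with several probe sets was represented by the one of highest mean level. Azin2 was selected on its higher level in null arrays, so its differences between null and the other genotypes are descriptions and carry no test. The other genes were chosen for their role in the pathway.

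The data were 15 single-colour Affymetrix whole-transcript arrays, 1 per mouse. The null group had 5 mice with 0 wild-type Add1 alleles, the heterozygous group 5 mice with 1, and the wild-type group 5 mice with 2. All were on the C57BL/6J strain, labelled male and 3 weeks old, an age chosen to precede hydrocephalus, and none received a treatment according to the labels. Which part of Add1 was deleted is not given in the sources.

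Polyamines (putrescine, spermidine and spermine) are small cations that bind RNA and DNA and support translation and growth. Ornithine decarboxylase, the product of Odc1, makes putrescine from ornithine, and the synthases Srm and Sms extend it to spermidine and then spermine with aminopropyl groups supplied through Amd1. Antizymes (Oaz1, Oaz2) are made when polyamines are plentiful; they bind ornithine decarboxylase monomers, send them to the proteasome and lower polyamine uptake. Antizyme inhibitors (Azin1, Azin2) resemble the decarboxylase but lack its activity, and they take up antizyme and so release the enzyme. Sat1 acetylates spermidine and spermine for export or oxidation, and Smox oxidises spermine. The choroid plexus is the tissue of the brain ventricles whose epithelium secretes cerebrospinal fluid.

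The promoters of Odc1 and Sat1 are shown because these genes had the smallest p-values among the members tested in null against wild type, in opposite directions. Each sequence is a RefSeq promoter of GRCm38.p6, from 250 bases before to 50 after the start, 5′ to 3′ on the gene's strand; capitals mark the GC box GGGCGG on either strand (CCGCCC on the other). Odc1 lies at chr12:17544623-17544922 (+) and Sat1 at chrX:155216400-155216699 (−).
Odc1: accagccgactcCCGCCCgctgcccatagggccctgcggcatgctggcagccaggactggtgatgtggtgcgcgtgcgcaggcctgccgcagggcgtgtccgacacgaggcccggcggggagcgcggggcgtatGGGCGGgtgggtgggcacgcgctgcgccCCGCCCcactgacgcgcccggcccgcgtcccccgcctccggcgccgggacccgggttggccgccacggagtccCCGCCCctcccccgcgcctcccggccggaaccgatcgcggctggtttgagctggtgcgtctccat
Sat1: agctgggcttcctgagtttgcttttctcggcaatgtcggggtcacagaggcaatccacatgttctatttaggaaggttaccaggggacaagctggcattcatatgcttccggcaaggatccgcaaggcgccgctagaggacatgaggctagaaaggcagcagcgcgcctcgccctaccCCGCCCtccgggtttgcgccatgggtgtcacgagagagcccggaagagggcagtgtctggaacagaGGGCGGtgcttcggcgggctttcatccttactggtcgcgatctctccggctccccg
The Odc1 promoter held 4 GC boxes and was 78.0% G or C, and the Sat1 promoter held 2 and was 60.3% G or C. Neither held the E-box CACGTG, the sequence bound by Myc, or the TATA box TATAAA, both searched on both strands. RefSeq promoters were found for 7 of the 10 members (8 promoters in all). At least 1 GC box occurred in 6 of these members, against 35.66% of all 32851 promoters in the table. An E-box occurred in 1 member, Sms, against 7.15% of promoters, and a TATA box in 1, Oaz1, against 13.62%. Members are counted by gene and the table by promoter, and Sms, with 2 promoters, counts if either matches. The motifs do not overlap each other's letters. These matches are descriptions of the letters in the window.

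Values are log2 levels after RMA (a between-array normalization that also summarises the probes of a set), so a difference of 1 is a doubling. A probe set's level cannot be set against another's. Add1 itself, as a check of the labels, ran from 7.41 to 7.76 in null arrays, 7.68 to 7.92 in heterozygous arrays and 7.78 to 8.04 in wild-type arrays, so the highest null array was just under the lowest wild-type array. Signal can remain where probes lie outside the deleted part. Of 12 choroid plexus epithelium markers 10 were measured, and their mean level was 11.24 to 11.32 in null arrays, 11.21 to 11.34 in heterozygous arrays and 11.23 to 11.34 in wild-type arrays. Xist, the RNA of the inactive X chromosome, was 9.09 in null 1 and 9.69 in null 5 and between 3.11 and 3.88 in the other 13 arrays, although every mouse was labelled male. Results are therefore also given without null 1 and null 5 where this matters. The array heterozygous 1 had the highest neuron, cerebellar neuron and oligodendrocyte marker means (7.0, 7.601 and 7.39) of any array. The samples also carry a label number of unstated meaning, which ran from 444 to 483 in null, 428 to 460 in heterozygous and 429 to 451 in wild-type samples.

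Azin2 stood highest in every null array. Its level was 9.04, 8.26, 8.42, 7.96 and 8.46 in null arrays, 7.31, 7.6, 7.53, 7.71 and 7.71 in heterozygous arrays, and 7.49, 7.37, 7.47, 7.49 and 7.53 in wild-type arrays. The lowest null array lay above the highest heterozygous and the highest wild-type array, so null overlapped neither genotype, while heterozygous and wild-type arrays overlapped. The null mean was 8.43 ± 0.39, the heterozygous mean 7.57 ± 0.17 and the wild-type mean 7.47 ± 0.06 (SD, n = 5 each). The null mean exceeded the wild-type mean by 0.96, or 1.94-fold, and the heterozygous mean by 0.86, or 1.81-fold. Null arrays were also the most spread, over 1.08 between null 1 and null 4.

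In mice with 1 wild-type allele the mean level of Azin2 was close to that in mice with 2. The heterozygous mean was 0.10 above the wild-type mean (SE 0.14, 95% confidence interval −0.19 to 0.39, adjusted p = 0.994 by limma), and it lay 0.38 below the midpoint of the null and wild-type means. Heterozygous 2 to 5 read at or above the highest wild-type array, and heterozygous 1, the array with the high neural markers, below the lowest. Without heterozygous 1 the difference from wild type was 0.17 (adjusted p = 0.999), and without heterozygous 4 or heterozygous 5 it was 0.07 (adjusted p = 0.998 and 0.991). The order of mean levels was thus null, heterozygous, wild-type, and the difference of the last pair was not called. Its limma p-values rest on a spread shared by all genotypes. Null arrays, on which Azin2 was selected, were the most spread (SD 0.39, against 0.17 in heterozygous and 0.06 in wild-type arrays). The p-values therefore do not measure this difference against the spread of the heterozygous and wild-type arrays alone. Without null 1 and null 5 the null mean exceeded the wild-type mean by 0.74 and the heterozygous mean by 0.64. Null 2 and heterozygous 5, which carry the label number 460, had 8.26 and 7.71. With the label number as a covariate the difference from wild type was 1.06.

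Some mean levels of markers of other cell types also differed between the genotypes. Only part of the 11 marker lists is given here, and none was tested. Neuron means, for example, were close, at 5.78 in null, 5.92 in heterozygous and 5.76 in wild-type arrays. The mean of 6 stroma markers was 7.93 to 8.41 in null arrays, 7.63 to 8.10 in heterozygous arrays and 7.63 to 8.0 in wild-type arrays. The mean of 7 endothelium markers was 5.55 to 6.14 in null arrays, 5.48 to 5.55 in heterozygous arrays and 5.36 to 5.79 in wild-type arrays. The mean of 6 astrocyte markers was 6.18 to 7.22 in null arrays, 6.13 to 7.30 in heterozygous arrays and 6.12 to 6.37 in wild-type arrays, highest among null arrays in null 3 and null 4. The mean of 8 cerebellar neuron markers ran the other way, at 5.21 to 5.90 in null arrays, 5.64 to 7.601 in heterozygous arrays and 5.72 to 5.92 in wild-type arrays. The highest heterozygous astrocyte (7.30) and cerebellar neuron (7.601) means were both those of heterozygous 1. Null 4, which had the highest stroma mean, had the lowest Azin2 level of the null arrays. Heterozygous 1, which had the highest neural marker means, had the lowest Azin2 level of all arrays. The part of cell composition in the Azin2 difference was not tested, and in bulk tissue more cells of a type cannot be told apart from more RNA per cell.

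**Figure D1:**
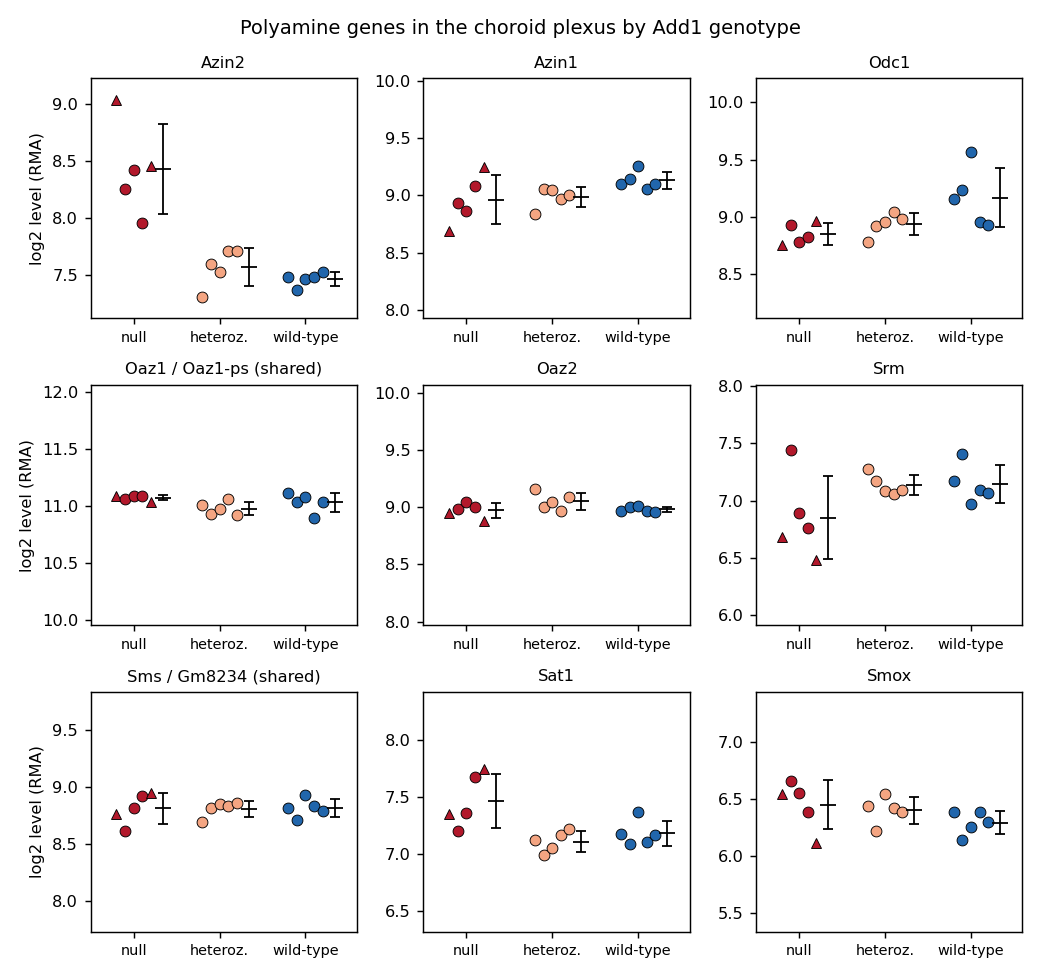
Log2 level (RMA) of each member in every array, by Add1 genotype (null, heterozygous, wild-type; 5 arrays each, in replicate order). Each panel spans the same number of log2 units; bars give mean and SD, and triangles mark null 1 and null 5, the arrays with Xist signal. Azin2 alone among the panels has all null arrays above all others.

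Azin1, the more widely expressed antizyme inhibitor, had its lowest mean in null arrays, close to the heterozygous mean, and did not pass the test. Its level was 8.69, 8.93, 8.86, 9.08 and 9.25 in null arrays, 8.84, 9.06, 9.05, 8.97 and 9.0 in heterozygous arrays, and 9.10, 9.14, 9.26, 9.06 and 9.10 in wild-type arrays. The null arrays spanned the whole heterozygous range and reached from below the wild-type range to near its top. The null mean minus the wild-type mean was −0.17 (SE 0.08, 95% confidence interval −0.35 to 0.01, limma adjusted p = 0.231). It was −0.10 without null 1 (adjusted p = 0.511) and −0.35 with the label number as a covariate (adjusted p = 0.113). The null mean differed from the heterozygous mean by −0.02 (limma adjusted p = 0.894), and the heterozygous mean from wild type by −0.15 (adjusted p = 0.994). Within the null group, null 1 was the highest for Azin2 and the lowest for Azin1.

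Of the 6 members other than Azin2 that were tested on their own probe sets, 0 passed an adjusted p of 0.05 in null against wild type by limma, higher or lower, where 4.17% of the 10069 tested genes were called higher and 3.56% lower. At an unadjusted p under 0.05 there were 3 (Odc1, Sat1 and Srm), where 24.0% of all tested genes were; an ordinary linear model called 0, and limma with array weights called all 3. All 7 members with their own probe set were above the threshold of 5.33 in every array, so the filter on low values removed none of them. Arrays of null and wild-type mice did not overlap for 1 of the 7, Azin2, which was selected for it; over all tested genes 5.96% did not overlap.

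Odc1, the gene of the decarboxylase that antizyme inhibitors release, had its lowest mean in null arrays and narrowly missed the threshold. Its level was 8.75, 8.93, 8.78, 8.82 and 8.96 in null arrays, 8.78, 8.92, 8.95, 9.04 and 8.98 in heterozygous arrays, and 9.15, 9.23, 9.57, 8.95 and 8.93 in wild-type arrays. Wild-type 1, 2 and 3 lay above all null and heterozygous arrays, and wild-type 4 and 5 lay among them. The null mean was 8.85 ± 0.09, the heterozygous mean 8.93 ± 0.10 and the wild-type mean 9.17 ± 0.26 (SD, n = 5 each). The difference of null from wild type was −0.32 (SE 0.10, 95% confidence interval −0.52 to −0.11, or 0.80-fold), with a limma adjusted p of 0.0548. It passed in 9 of 29 alternative analyses, with adjusted p between 0.0266 and 0.253 over all of them. Without wild-type 3 it was −0.22 (adjusted p = 0.122).

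A second Odc1 probe set gave values of the same order. It read 8.71, 8.91, 8.84, 8.91 and 8.70 in null arrays, 9.09, 8.93, 8.92, 8.92 and 8.89 in heterozygous arrays, and 9.11, 9.10, 9.22, 8.96 and 8.93 in wild-type arrays. On this probe set all null arrays lay below all wild-type arrays, by 0.25 on average. The mean of both probe sets differed by −0.28 between null and wild type, with a limma adjusted p of 0.0266. The levels of the 2 probe sets correlated at r = 0.69 over the 15 arrays, which share tissue and normalization.

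The heterozygous mean of Odc1 was 0.23 below wild type (95% confidence interval −0.44 to −0.03, unadjusted p = 0.0293, limma adjusted p = 0.994), or 0.13 below without wild-type 3, and the null mean was 0.09 below heterozygous (adjusted p = 0.615). Both differences from wild type share the 5 wild-type arrays. The slope of Odc1 on the number of wild-type alleles was 0.16 per allele (adjusted p = 0.063).

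The antizymes differed little between genotypes. The probe set shared by the antizyme Oaz1 and its pseudogene Oaz1-ps ran from 11.04 to 11.09 in null arrays, 10.92 to 11.06 in heterozygous arrays and 10.90 to 11.12 in wild-type arrays. The null mean exceeded the wild-type mean by 0.04 (95% confidence interval −0.07 to 0.15, limma adjusted p = 0.703) and the heterozygous mean by 0.09 (−0.01 to 0.20, adjusted p = 0.264). Another shared probe set followed it at r = 0.97 over the 15 arrays. Oaz2, a second antizyme, ran from 8.88 to 9.05 in null arrays, 8.97 to 9.16 in heterozygous arrays and 8.96 to 9.01 in wild-type arrays. Its difference of null from wild type was −0.01 (95% confidence interval −0.12 to 0.10, adjusted p = 0.941), an interval that leaves out changes of the size seen for Azin2. Antizyme is governed largely by frameshifting during its translation, which RNA levels do not measure.

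Srm, which makes spermidine, was low in 4 of the 5 null arrays. Its level was 6.68, 7.44, 6.89, 6.76 and 6.48 in null arrays, 7.28, 7.17, 7.08, 7.06 and 7.09 in heterozygous arrays, and 7.17, 7.41, 6.97, 7.09 and 7.07 in wild-type arrays. Null 2 was the highest of all 15 arrays, and the other null arrays lay below every heterozygous and wild-type array. The null mean differed from wild type by −0.29 (SE 0.13, 95% confidence interval −0.57 to −0.02, limma adjusted p = 0.179) and from heterozygous by −0.29 (adjusted p = 0.175). Without null 2 these differences were −0.44 (adjusted p = 0.00529) and −0.43 (adjusted p = 0.00531), so that array decides the call. Without null 1 and null 5 they were −0.11 in each case (adjusted p = 0.679 and 0.702), and with the label number as a covariate −0.13 in each case (adjusted p = 0.786 and 0.781). Heterozygous and wild-type means differed by −0.01 (adjusted p = 0.994).

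Sms, which makes spermine, was read on a probe set shared with the pseudogene Gm8234. It ran from 8.61 to 8.95 in null arrays, 8.69 to 8.86 in heterozygous arrays and 8.71 to 8.93 in wild-type arrays. The null mean differed from wild type by −0.004 (95% confidence interval −0.14 to 0.14, limma adjusted p = 0.977) and from heterozygous by 0.002 (adjusted p = 0.99).

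Sat1, the acetyltransferase that starts polyamine breakdown and export, was higher in null than in heterozygous arrays and was the only member of those tested that was called in a comparison. Its level was 7.35, 7.20, 7.36, 7.68 and 7.75 in null arrays, 7.12, 6.99, 7.05, 7.17 and 7.22 in heterozygous arrays, and 7.18, 7.09, 7.37, 7.11 and 7.17 in wild-type arrays. Null 4 and null 5 lay above all other arrays, and null 2 lay within both other groups. The null mean exceeded the heterozygous mean by 0.36 (SE 0.09, 95% confidence interval 0.16 to 0.55, or 1.28-fold), with a limma adjusted p of 0.0283. In this comparison 1 of the 6 members was called higher and 0 lower, where 4.32% of tested genes were called higher and 3.61% lower. Over wild type the null mean was 0.28 higher (SE 0.09, 95% confidence interval 0.09 to 0.48) and did not pass, at an adjusted p of 0.0708.

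Several single choices end the Sat1 call. Over 29 alternative analyses null against heterozygous passed in 20, with adjusted p from 0.00504 to 0.521. Sat1 is X-linked, and without null 1 and null 5, the arrays with Xist signal, the difference was 0.30 (adjusted p = 0.0971). With the label number as a covariate it was 0.17 (adjusted p = 0.521), and the pair with the same label number, null 2 and heterozygous 5, read 7.20 and 7.22. It also failed without null 4 (adjusted p = 0.06), without null 5 (0.0521) and without heterozygous 1, 2 or 3 (0.0518, 0.0674 and 0.0672).

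Smox, the spermine oxidase, ran from 6.11 to 6.66 in null arrays, 6.22 to 6.54 in heterozygous arrays and 6.14 to 6.38 in wild-type arrays. Null 2 was the highest of all arrays and null 5 the lowest. The null mean was 0.16 above wild type (95% confidence interval −0.03 to 0.35, limma adjusted p = 0.299). It was 0.11 without null 2 (adjusted p = 0.454), 0.24 without null 5 (adjusted p = 0.0529), 0.24 without null 1 and null 5 (adjusted p = 0.121) and 0.30 with the label number as a covariate (adjusted p = 0.232).

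**Figure D2:**
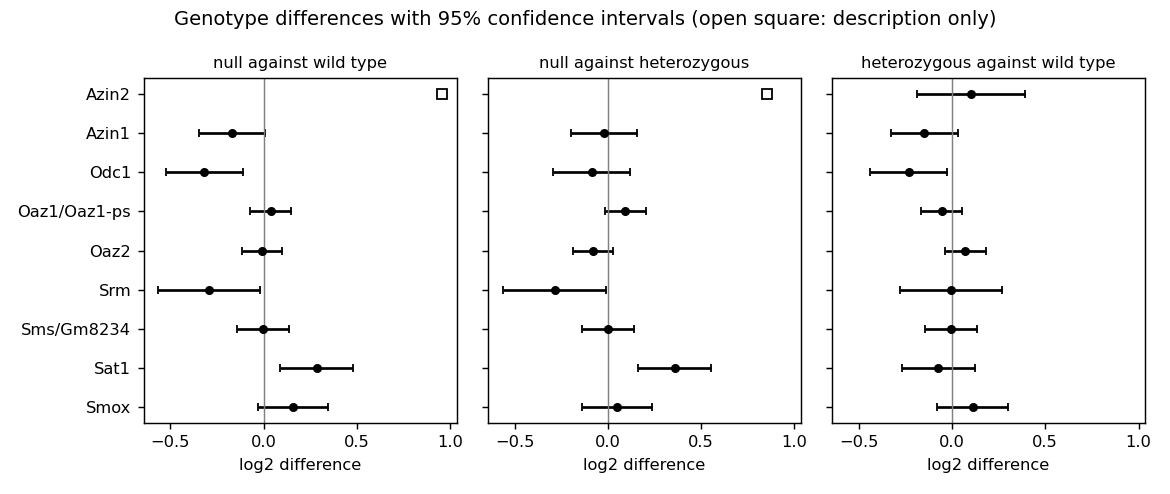
Difference of genotype means on the log2 scale with 95% confidence intervals from limma, for the members in the order of their roles. For Azin2 the null differences (0.96 and 0.86) are open squares without an interval, being descriptions; the Odc1, Srm and Sat1 intervals in null against wild type leave out 0, but none of them passed after adjustment over all genes.

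With 1 allele lost, no member passed. In heterozygous against wild type 0 of the 7 members were called by limma, with differences from −0.23 to 0.11 and an adjusted p of 0.994 for each. At an unadjusted p under 0.05 there was 1 (Odc1), and the ordinary linear model called 0. Over all 10069 genes 0% were called, 381 had an unadjusted p under 0.05, and the smallest adjusted p was 0.0875. On the number of wild-type alleles 0 of the 6 members other than Azin2 had a called slope, where 5.64% of genes did. For this slope 3 (Odc1, Sat1 and Srm) had an unadjusted p under 0.05, where 22.9% of all tested genes did. The ordinary linear model called 0. The Azin2 slope was −0.48 per allele, as a description.

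The wider pathway was read through a list of 40 genes for the supply of ornithine and of aminopropyl groups, transport, breakdown and hypusination, the modification of the translation factor eIF5A that uses spermidine. Of these, 23 were tested on their own probe sets. In null against wild type 0 were called by limma, where 4.17% of all tested genes were called higher and 3.56% lower. The median difference was −0.03 over the list and 0.01 over all tested genes. At an unadjusted p under 0.05 there were 4, where 24.0% of all tested genes were; the ordinary linear model called 0, and limma with array weights called 1. In heterozygous against wild type 0 were called, as over all tested genes. There 1 had an unadjusted p under 0.05, where 3.78% of all tested genes did, and the ordinary linear model called 0. On the allele number 0 were called, where 5.64% of all tested genes were. For this slope 3 had an unadjusted p under 0.05, where 22.9% of all tested genes did, and the ordinary linear model called 0. In null against heterozygous 1 of the 23 was called higher and 1 lower, near the shares over all tested genes (4.32% and 3.61%). The median was −0.01 over the list and 0.01 over all tested genes. In this comparison 7 had an unadjusted p under 0.05, where 25.8% of all tested genes did, and the ordinary linear model called 2.

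The genes called were Oat and Aldh18a1. Oat, the ornithine aminotransferase, read 9.49, 9.14, 9.20, 9.42 and 9.30 in null arrays, 8.95, 9.0, 8.92, 9.13 and 9.11 in heterozygous arrays, and 9.31, 9.11, 9.16, 9.12 and 9.15 in wild-type arrays. All null arrays lay above all heterozygous arrays, by 0.29 on average (SE 0.07, limma adjusted p = 0.0225). Over wild type the difference was 0.14 (adjusted p = 0.243), and the heterozygous mean differed from wild type by −0.15 (adjusted p = 0.994). Aldh18a1, the synthase of the proline and ornithine precursor, read 5.98, 6.19, 5.97, 5.93 and 5.91 in null arrays, 6.31, 6.21, 6.37, 6.37 and 6.12 in heterozygous arrays, and 5.96, 6.14, 6.12, 6.12 and 6.14 in wild-type arrays. Only null 2 reached into the heterozygous range, and the difference of null from heterozygous was −0.28 (SE 0.07, adjusted p = 0.0187). The null mean differed from wild type by −0.10 (adjusted p = 0.385). The heterozygous mean differed from wild type by 0.18 (unadjusted p = 0.0154, limma adjusted p = 0.994). The larger part of the Aldh18a1 gap thus lay between heterozygous and wild-type means. In null against heterozygous neither gene passed without null 1 and null 5: Oat gave 0.23 (adjusted p = 0.109) and Aldh18a1 −0.25 (adjusted p = 0.0963). With the label number as a covariate Oat gave 0.30 (adjusted p = 0.145) and Aldh18a1 −0.19 (adjusted p = 0.308). The fit to null and heterozygous arrays alone gave adjusted p of 0.0609 and 0.0568. The Oat call was also lost without null 1 (adjusted p = 0.0648), heterozygous 1 (0.0532) or heterozygous 3 (0.0607), and the Aldh18a1 call without heterozygous 3 (0.0516).

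Ass1, the argininosuccinate synthase of arginine formation, had the smallest p-value of the list against wild type. Its probe set, shared with the pseudogene Gm5424, read 6.91, 7.07, 7.01, 6.94 and 6.68 in null arrays, 6.21, 6.15, 6.51, 6.6 and 6.39 in heterozygous arrays, and 6.40, 6.31, 6.30, 6.22 and 6.42 in wild-type arrays. Every null array lay above every heterozygous and wild-type array. The null mean was 0.59 above wild type (SE 0.09, 95% confidence interval 0.41 to 0.78, or 1.51-fold, limma adjusted p = 0.000967) and 0.55 above heterozygous (adjusted p = 0.00226). Both differences passed in all 21 alternative analyses run for this probe set, without null 1 and null 5 among them, with adjusted p up to 0.0281 and 0.0354. Heterozygous and wild-type means differed by 0.04 (adjusted p = 0.994). The p-values come from a fit in which the shared probe sets were added, 10401 units in all, an analysis chosen after seeing the data. The probe set cannot separate Ass1 from the pseudogene.

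In null against wild type the other named genes, by the smallest p-values in each role, had wide or small differences. Slc47a1, an organic cation exporter of the MATE family, differed by 0.75 (adjusted p = 0.205), with 5.80 to 6.07 in wild-type 1 to 4 and 7.66 in wild-type 5. Gatm, which makes the creatine precursor from arginine, differed by 0.60 (adjusted p = 0.184), and Slc7a2, a carrier of cationic amino acids, by 0.25 (adjusted p = 0.288). Eif5a differed by −0.21 (adjusted p = 0.141) on its probe set of highest mean level, and by −0.07 on another probe set of its own. Dohh, the hydroxylase that completes hypusine, differed by −0.17 (adjusted p = 0.233). Adi1 and Enoph1, enzymes of methionine salvage, differed by −0.16 (adjusted p = 0.0909) and 0.10 (adjusted p = 0.263). Sat2, a paralogue of Sat1, differed by −0.07 (adjusted p = 0.633).

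Some of these turn on single arrays. Mean stroma and astrocyte markers, given above, were also higher in null than in wild-type arrays; astrocyte markers were highest among null arrays in null 3 (7.22) and null 4 (7.16), where Gatm read 7.21 and 6.35, its highest null values. The part of these cell types in the differences was not tested. The Slc47a1 difference was 1.09 without wild-type 5 (adjusted p = 0.0323) and 0.50 without null 4 (adjusted p = 0.396). The Slc7a2 difference was 0.40 without wild-type 5 (adjusted p = 0.017) and 0.16 without wild-type 3 (adjusted p = 0.567). Without null 2 the Dohh difference was −0.24 (adjusted p = 0.038). The Gatm difference was 1.04 without null 1 and null 5 (adjusted p = 0.0285) and 0.32 without null 3 (adjusted p = 0.429). The Eif5a difference was −0.14 without wild-type 3 (adjusted p = 0.339), and that of Sat2 was −0.02 without null 1 (adjusted p = 0.926) and −0.12 without null 5 (adjusted p = 0.344). With the label number as a covariate Slc47a1 gave 0.37, Slc7a2 0.05, Dohh −0.05 and Sat2 −0.28, all uncalled. Slc47a1 against heterozygous arrays was 1.13 higher in null arrays (adjusted p = 0.0563), and passed in 5 of 29 alternative analyses, among them without null 3 at 1.37 (adjusted p = 0.036).

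**Figure D3:**
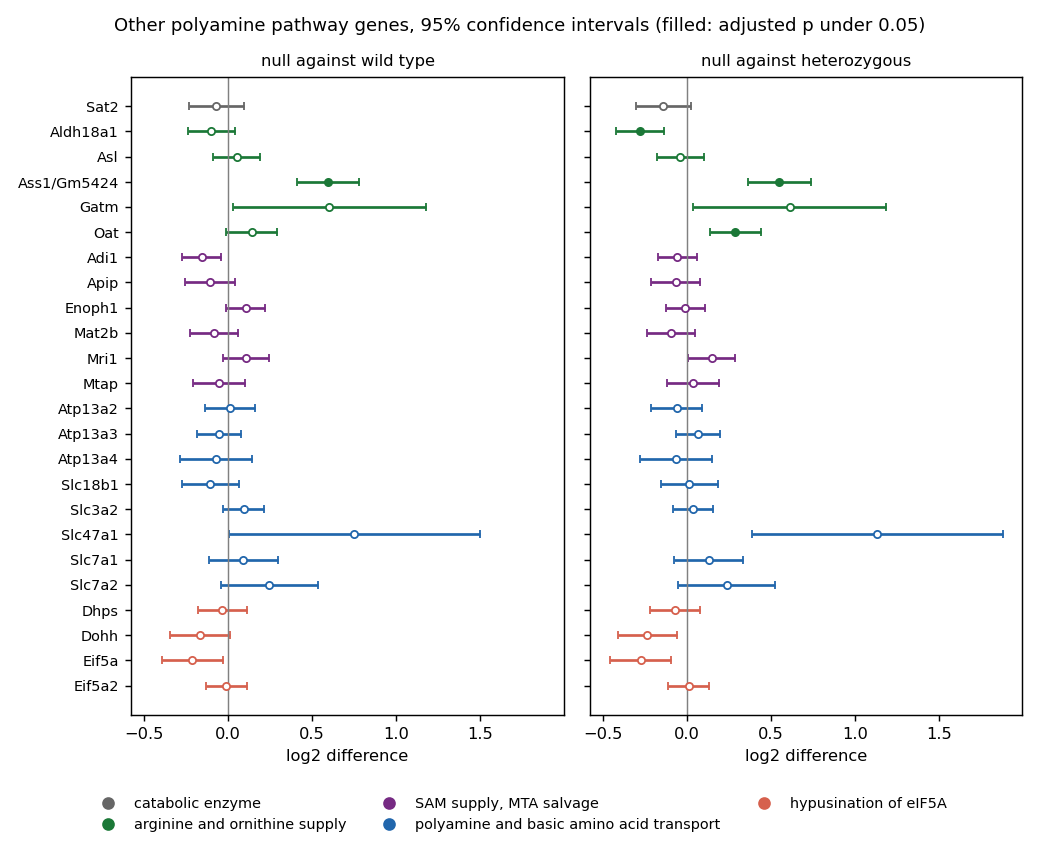
Difference of genotype means on the log2 scale with 95% confidence intervals from limma for 23 genes of the wider list and for the shared probe set of Ass1, coloured by role. Filled points passed an adjusted p of 0.05: Ass1/Gm5424 in both panels, Oat and Aldh18a1 in null against heterozygous only.

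Other genes of the list were below the threshold of 5.33 and not tested. Among them were the arginases Arg1 (3.18 in null, 3.19 in heterozygous and 3.21 in wild-type arrays, means) and Arg2 (3.00, 2.97 and 3.03 in the same order), the antizyme Oaz3 and agmatinase (Agmat). Myc and Mycn, transcription factors known to drive Odc1, were also below it, with Myc at 3.53 in null, 3.53 in heterozygous and 3.37 in wild-type arrays. Low array signal of this kind does not show that a gene is not expressed.

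Among the genes beside Azin2 on chromosome 4 only Zfp362 and Hpca could be tested. Azin2 was selected for its null rise, so a smaller difference in a neighbour is no result about that neighbour. Of the nearest 3 on each side with a probe set, 4 were below the threshold, with null minus wild-type differences between 0.01 and 0.02. At such low signal a small difference says little. Zfp362 had 6.35 in null, 6.17 in heterozygous and 6.13 in wild-type arrays, a difference of 0.21 from wild type (limma adjusted p = 0.125). Hpca had 5.75 in null, 5.94 in heterozygous and 5.79 in wild-type arrays, a difference of −0.05 (adjusted p = 0.833). The order of genes is that of GRCm38.p6.

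Among the genes outside the set, those with levels most like Azin2 over the 15 arrays, by Pearson's r, were Ermard (r = 0.965), Mansc4 (0.965), Mettl27 (0.964), Oca2 (0.960) and Apoe (0.960). Oca2, the melanosomal transport protein, averaged 10.20 in null, 9.57 in heterozygous and 9.49 in wild-type arrays. Apoe, the lipid carrier, averaged 12.65 in null, 12.27 in heterozygous and 12.22 in wild-type arrays. After the genotype means were removed, the same genes kept r of 0.886 (Ermard), 0.878 (Mansc4), 0.863 (Mettl27), 0.800 (Oca2) and 0.803 (Apoe). By this measure, r of the deviations from the genotype means, the nearest genes were Rad21 (0.922), Ripk4 (0.914), Ccpg1 (0.913), Gstm7 (0.897) and Eps8l2 (0.889). Here the null arrays weigh most, since Azin2 spread 0.39 (SD) in them against 0.17 in heterozygous and 0.06 in wild-type arrays. Ripk4, a protein kinase, shows what this measures: it was highest in null 1 (6.84) and lowest in null 4 (5.99), as Azin2 was among null arrays, yet its means were 6.44 in null, 6.53 in heterozygous and 6.46 in wild-type arrays. The arrays share tissue and normalization, and these values are descriptions.

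**Figure D4:**
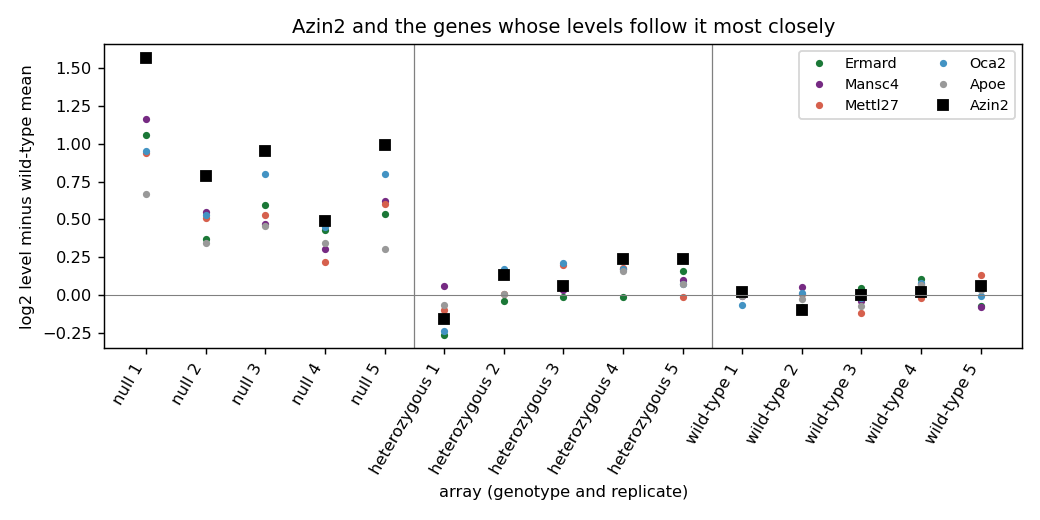
Log2 level minus the wild-type mean for Azin2 (black squares) and the 5 genes most correlated with it over all 15 arrays, in null, heterozygous and wild-type arrays by replicate. All 6 are highest in null 1, and heterozygous and wild-type arrays lie near 0.

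The other members had lower r than these genes, which were picked as the highest among all tested genes outside the set. That contrast is therefore no result about the members. Over the 15 arrays the correlation with Azin2 was −0.62 for Srm, −0.47 for Odc1, −0.47 for Azin1, −0.41 for Oaz2, 0.34 for Smox and 0.57 for Sat1. For the deviations from genotype means it was −0.36 for Srm, −0.04 for Odc1, −0.41 for Azin1, −0.42 for Oaz2, 0.09 for Smox and −0.19 for Sat1. Sat1 thus had a higher mean in null arrays like Azin2, but its deviations did not rise with those of Azin2 over the pooled arrays. Null arrays weigh most in that value, and there null 1 had the most Azin2 (9.04) and null 5 the most Sat1 (7.75). Heterozygous arrays differed: heterozygous 4 and 5 had the most Azin2 (7.71 in each) and the most Sat1 (7.17 and 7.22).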

How the data were processed

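RNA of the choroid plexus was measured on 15 arrays, 5 per genotype, each from 250 ng of total RNA. Per the submitters' processing notes the values were made with Affymetrix Expression Console 1.1 and RMA, which evens out the distribution of probe intensities between arrays. The deposited values are taken as log2; the base is not stated and was read from their range, 1.57 to 13.89. Neither the genome build nor the probe annotation is given in the sources used here. Of 35556 probe sets the platform annotation, which can be old, named 21789 with 1 symbol and 1621 with several, and 12146 were unnamed. Genes above 5.33, the median of the named probe sets' values, in at least 5 arrays were tested (10069). One linear model per gene over all arrays was fitted with limma 3.58.1 (R 4.3.3), with Benjamini-Hochberg adjustment over all tested genes; the slope on allele number was a separate fit. The code was tested on simulated data. The members and gene lists were chosen with earlier results of these data known. Genes named are the members, list genes that passed in any comparison or else had the 2 smallest p-values of their role, the 3 nearest genes on each side of Azin2, and the 5 most like it by each measure; Slc47a1 against heterozygous and the below-threshold genes were picked after their values were seen. Replicate numbers in the labels were checked for pairing and are not known to pair the mice. Correlations of deviations between same-numbered arrays ran from −0.253 to 0.238. Between the heterozygous and wild-type groups 4 of 5 arrays correlated best with their own number. No arrays were identical, and the mice are separate animals by the design. The number of arrays limits the precision. Alternatives were other filters, probe set rules, normalizations, variance models, covariates and sets of arrays.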

Additional observations from a re-analysis of the deposited data

Results flagged for a closer look

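In 66 groups of 5 arrays (22 named genes in 3 genotypes), 7 had an array farther from the rest than Dixon's 95% critical value of 0.71; chance flags about 1 in 20 groups. None of the 7 concerned a member on its probe set of highest mean level. Second probe sets were not checked. On that of Odc1, heterozygous 1 read 9.09, against 8.89 to 8.93 in the other heterozygous arrays. Slc47a1 was 7.66 in wild-type 5, against 5.80 to 6.07 in the other wild-type arrays. Gatm was 6.03 in wild-type 4, against 5.31 to 5.44. Oat was 9.31 in wild-type 1, against 9.11 to 9.16. Aldh18a1 was 6.19 in null 2, against 5.91 to 5.98 in the other null arrays, and 5.96 in wild-type 1, against 6.12 to 6.14 in the other wild-type arrays. Slc7a2 was 5.37 in heterozygous 3, against 5.45 to 5.48. Zfp362 was 5.94 in heterozygous 2, against 6.17 to 6.26 in the other heterozygous arrays.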

How the results depend on the processing

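Over the 29 alternatives the Azin2 difference of null from wild type ran between 0.74 and 1.08, and that from heterozygous between 0.64 and 0.97. Because Azin2 was selected on its null level, these ranges describe the size of the difference and are no support for it. Members other than Azin2 called in null against wild type were 0 in the analysis reported. Array weights called 1 higher and 2 lower; the mean of probe sets, median centring, repeated quantiles, and trend with robust variances called 1 lower each; leaving out single arrays called 0 to 1 higher and 0 to 2 lower. In null against heterozygous the 1 higher became 0 under the ordinary linear model, the label number as covariate, without the null arrays with Xist signal and with only these genotypes fitted, and 0 to 1 on leaving out single arrays (lower, 0 to 1). For the slope, the mean of probe sets, trend with robust variances and array weights called 1 higher each, and leaving out single arrays 0 to 1. Causes were not tested.

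Over all genes, null against wild type called 778. Array weights called 1320, the ordinary model 493, the label covariate 257, the set without Xist arrays 396 and the 2 genotypes alone 461; single arrays left out gave 390 (without wild-type 1) to 1418 (without null 2). Median centring gave 817, of which 31.8% were higher, against 54.0%; without the Xist arrays 64.1% were. Heterozygous against wild type called 0, and 1 with array weights and without the Xist arrays, or 0 to 1 with single arrays left out. Null against heterozygous called 798. No filter called 500, array weights 1297, the ordinary model 469, the label covariate 195, the set without Xist arrays 330 (67.3% higher, against 54.5%) and the 2 genotypes alone 343; single arrays left out gave 356 to 1815. The slope called 568. No filter called 322, the ordinary model 204, the label covariate 1, the label as random block 313 and the set without Xist arrays 117; single arrays left out gave 162 to 697, and median centring 587, of which 72.4% were higher, against 44.4%.

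Signs of small, uncalled differences turned. Oaz2 in null against wild type was 0.0021 with repeated quantiles, 0.0074 with array weights, 0.0024 with the label covariate and 0.0313 without Xist arrays (single arrays left out, −0.027 to 0.0155); its slope was −0.001, −0.007, −0.0206 and −0.0213 under the same (−0.0103 to 0.0101). Srm in heterozygous against wild type was 0.0029 with the label covariate (−0.049 to 0.061). Azin1 and Smox in null against heterozygous ran from −0.094 to 0.046 and −0.005 to 0.1325 with single arrays left out. The Sms probe set was 0.0441 with array weights in null against wild type (−0.039 to 0.046), and −0.0994 with the label covariate and −0.028 without Xist arrays in null against heterozygous (−0.033 to 0.052). Hpca was 0.0216 with array weights and 0.1393 without Xist arrays (−0.109 to 0.046).

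With the replicate number as a block, 518 genes were called in null against wild type and 306 for the slope; the Azin2 difference remained 0.958 and no member's call changed, while Slc47a1 in null against heterozygous passed (adjusted p = 0.039). The numbers are not known to pair the mice: arrays correlated best with their own number in 0 of 5 pairs (null and wild-type), 1 of 5 (null and heterozygous) and 4 of 5 (heterozygous and wild-type).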
